A study of Mus musculus with 12 samples.

Results

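A set of 10 endothelial marker genes was followed in adult mouse liver after prenatal vitamin D deficiency. Of 52636 annotated genes, 6 were taken as markers of the sinusoidal endothelium (Stab2, Lyve1, Clec4g, Oit3, Fcgr2b and Gata4) and 4 as markers of capillary or large vessel endothelium, called vascular here (Cd34, Vwf, Plvap and Pecam1). They were chosen by name as known markers, with earlier results of these mice known. The RNA came from the left lateral lobe of 12 male C57Bl/6J mice aged 16 weeks, with 1 library per mouse: 6 VDD-F1 mice and 6 VDS-F1 mice. The mothers of VDD-F1 mice ate a vitamin D deficient diet with added calcium gluconate before mating and through pregnancy, and the mothers of VDS-F1 mice ate the matched sufficient diet. All offspring ate the sufficient diet after weaning, so the groups differ in early exposure and not in the adult diet. No label gives the litter of a mouse, and the p-values therefore measure the spread between these mice only.

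The liver sinusoids are lined by endothelial cells that have open pores and no continuous basement membrane, and that clear waste molecules from blood through scavenger receptors. Portal and central veins, arteries and capillaries elsewhere carry a closed endothelium with other surface proteins. When sinusoidal cells lose their pores and scavenger receptors and gain such proteins, the process is known as capillarization, and CD34 and PECAM1 are commonly used to follow it.

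The stretches before the gene starts of Stab2, Clec4g and Cd34 are shown because these genes had some of the lowest unadjusted p-values in the diet comparison and can be read beside each other. RefSeq on GRCm38.p6 gave a promoter entry for 4 of the 10 members (these 3 and Fcgr2b). Each stretch below ends just before the annotated gene start and runs 5′ to 3′ on the gene's strand. The capitals mark AGGAAG or its reverse complement CTTCCT, letters bound by ETS factors of endothelial cells, or AGGTCA, a nuclear receptor half-site.
Stab2, chr10:87008026-87008192, minus strand: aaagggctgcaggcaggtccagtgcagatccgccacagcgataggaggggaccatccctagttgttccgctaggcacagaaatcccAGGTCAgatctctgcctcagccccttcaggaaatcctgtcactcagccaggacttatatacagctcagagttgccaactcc
Clec4g, chr8:3720652-3720901, minus strand: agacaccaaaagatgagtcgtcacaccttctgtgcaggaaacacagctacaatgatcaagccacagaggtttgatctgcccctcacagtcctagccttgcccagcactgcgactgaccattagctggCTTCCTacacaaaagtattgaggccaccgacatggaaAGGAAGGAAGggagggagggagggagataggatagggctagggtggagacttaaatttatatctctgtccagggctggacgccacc
Cd34, chr1:194938571-194938818, plus strand: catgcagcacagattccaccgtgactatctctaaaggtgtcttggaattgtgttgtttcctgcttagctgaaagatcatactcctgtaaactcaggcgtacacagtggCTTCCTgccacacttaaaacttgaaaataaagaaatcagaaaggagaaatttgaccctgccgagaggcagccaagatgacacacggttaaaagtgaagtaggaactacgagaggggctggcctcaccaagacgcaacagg
Clec4g held 3 AGGAAG matches, of which 2 overlap by sharing bases, and Cd34 held 1. Over the same length, 29.5% of 32851 mouse promoters hold AGGAAG on either strand at 250 bases and 29.3% at 248 bases. Stab2 held 1 AGGTCA match, found in 9.46% of promoters at 167 bases, while AGGAAG was not in its window. The letters GATAA, read by GATA factors, were searched on both strands and lay in none of the 3 windows, against 17.0% of promoters at 167 bases and 22.6% at 250 bases.

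All 10 members were detected in every library and passed the filter on a mean count of at least 12. Counts ran from 10 for Cd34 in 2 VDS-F1 libraries to 1722 for Stab2. The libraries held 25897868 to 36403413 fragments, of which 14275793 to 20815066 were counted in genes. Values are CPM, the counts scaled to a common library size by TMM factors, unless a level per kilobase is named. Liver RNA was checked by 6 hepatocyte genes, whose most abundant member Alb had a mean of 73412 CPM in VDD-F1 and 62238 CPM in VDS-F1. A few libraries stood apart. VDS6 had 11.1% of fragments outside any exon on the counted strand, against at most 4.94% in the other libraries. VDD2 had the highest summed CPM of 8 stellate cell and fibroblast genes (1023, against 311 in the lowest mouse of its group). VDS1 had the lowest summed CPM in its group for each of 5 endothelial lists. It had the highest in its group for the hepatocyte, stellate cell and fibroblast, portal fibroblast, smooth muscle, mesothelium, cholangiocyte and platelet lists. VDS1 was also highest there for the lymphatic list, where Prox1, which hepatocytes also express, made up nearly all of the sum (325.7 of 327.3 CPM). The study recorded a liver weight for 7 of the mice (VDS3 to VDS6, VDD4 to VDD6) and not for the other 5 (VDS1, VDS2, VDD1 to VDD3), and the diet differences of the members are also given within these sets.

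The level of the members spanned a wide range. Per kilobase of exon, the order of the mean levels over 12 mice was Plvap, Clec4g, Oit3, Stab2, Gata4, Fcgr2b, Lyve1, Pecam1, Vwf and Cd34. Plvap, which forms the diaphragms of endothelial pores and vesicles, had 24.5 ± 3.59 CPM per kilobase (SD, n = 12 mice), and its lowest mouse at 17.3 was above the highest mouse of any other member. Cd34 was the lowest at 0.454 ± 0.456 CPM per kilobase and Vwf was next at 0.624 ± 0.118, and their ranges overlapped. From Clec4g (11.4 ± 1.62) down to Pecam1 (3.37 ± 0.530), each member's range over mice overlapped that of the next member in the order. Pecam1 and Vwf did not overlap, with 2.65 as the lowest Pecam1 and 0.820 as the highest Vwf level per kilobase.

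The comparison of VDD-F1 with VDS-F1 asked whether prenatal deficiency left the adult liver with another balance of sinusoidal and vascular endothelium. With all 12 mice, no member passed an adjusted p of 0.05 in the quasi-likelihood test of edgeR, with p-values adjusted by Benjamini-Hochberg over 12453 genes, of which 0.0402% passed. The groups overlapped for all 10 members, while 1.18% of all genes did not overlap. Cd34 differed most, 3.60-fold higher in VDD-F1 by the edgeR fit, followed at a distance by Lyve1 (1.31-fold higher) and Clec4g (0.824-fold). At an unadjusted p under 0.05, 4 of the 10 members differed, 2 in each direction, against 15.8% of all genes tested (9.55% higher and 6.29% lower in VDD-F1). The median log2 fold change was -0.17 over the 6 sinusoidal members and 0.09 over the 4 vascular members, beside 0.0041 over all genes tested.

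**Figure D1:**
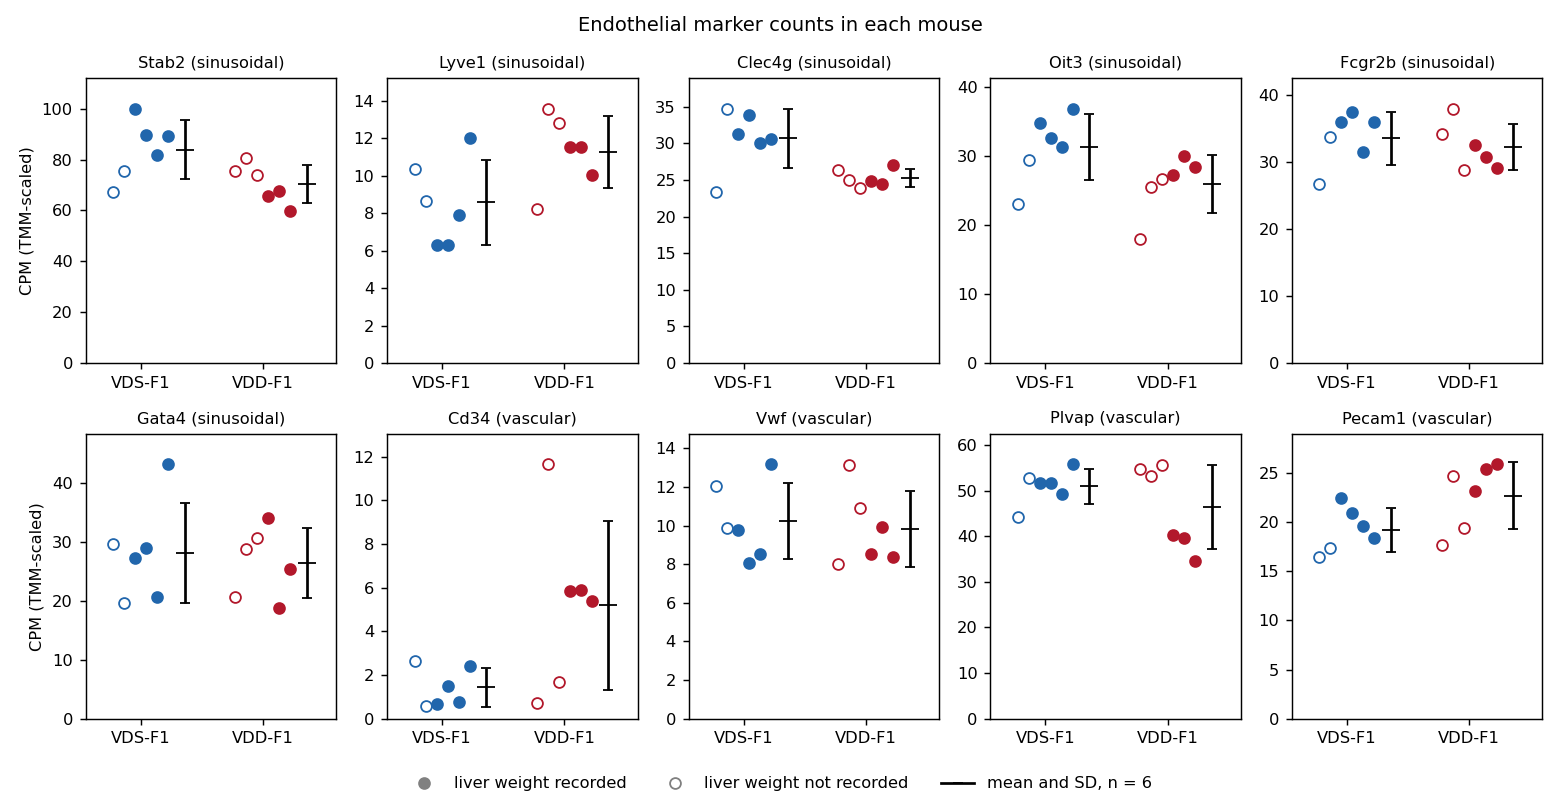
CPM of each member (y axes, starting at 0) in the 6 VDS-F1 (blue) and 6 VDD-F1 mice (red), mice 1 to 6 from left to right. Filled circles are mice with a recorded liver weight, open circles the others, and black bars give the mean and SD. The groups overlap in every panel, and the filled circles of Stab2, Clec4g, Oit3, Cd34, Plvap and Pecam1 do not.

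Among the sinusoidal scavenger receptors, Stab2 clears hyaluronan from blood. Its gene (ENSMUSG00000035459.17, chr10:86841198-87008025, minus strand) was counted at 75.4, 80.6, 73.9, 65.8, 67.7 and 59.9 CPM in VDD1 to VDD6. In VDS1 to VDS6 it was counted at 67.2, 75.5, 99.9, 89.6, 81.8 and 89.2 CPM. The groups overlapped, the 4 highest values all being VDS-F1 and 2 VDD-F1 mice lying below every VDS-F1 mouse. The means were 70.6 ± 7.49 and 83.9 ± 11.6 CPM (SD, n = 6 each), with a log2 fold change of -0.25 (SE 0.10, adjusted p = 0.259 in edgeR). Voom with sample weights gave -0.36 and an adjusted p of 0.0448, which 4.74% of genes passed there.

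Lyve1, another hyaluronan receptor that lymphatic endothelium also carries (ENSMUSG00000030787.4, chr7:110850607-110863239, minus strand), was the only sinusoidal member with a higher mean in VDD-F1. Its levels were 8.21, 13.6, 12.8, 11.5, 11.5 and 10.03 CPM in VDD1 to VDD6 and 10.4, 8.67, 6.32, 6.29, 7.92 and 12.02 CPM in VDS1 to VDS6. VDD2 and VDD3 lay above every VDS-F1 mouse, and the other mice overlapped. The log2 fold change was 0.39 (SE 0.17, adjusted p = 0.293 in edgeR), from means of 11.3 ± 1.93 and 8.60 ± 2.27 CPM (SD, n = 6 each).

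The C-type lectin Clec4g (LSECtin), which binds glycans on pathogens and cells, had the tightest VDD-F1 values of all members (ENSMUSG00000074491.9, chr8:3707064-3720651, minus strand). They were 26.3, 24.9, 23.9, 24.9, 24.4 and 27.0 CPM in VDD1 to VDD6, against 23.4, 34.7, 31.3, 33.9, 30.1 and 30.6 CPM in VDS1 to VDS6. VDS1 lay below all 6 VDD-F1 mice, and the other 5 VDS-F1 mice lay above them all. With means of 25.3 ± 1.20 and 30.7 ± 4.01 CPM (SD, n = 6 each), the log2 fold change was -0.28 (SE 0.09, adjusted p = 0.171 in edgeR).

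Oit3, a secreted protein of sinusoidal cells (ENSMUSG00000009654.4, chr10:59422958-59441778, minus strand), ran the same way. VDD1 to VDD6 had 18.0, 25.5, 26.6, 27.2, 29.9 and 28.4 CPM and VDS1 to VDS6 had 23.1, 29.4, 34.7, 32.6, 31.2 and 36.8 CPM. VDD1 was the lowest of all, and VDS1 and VDS2 were the VDS-F1 mice that lay under the highest VDD-F1 value. The means of 25.9 ± 4.18 and 31.3 ± 4.79 CPM (SD, n = 6 each) gave a log2 fold change of -0.27 (SE 0.13, adjusted p = 0.334 in edgeR).

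The inhibitory Fc receptor Fcgr2b and the transcription factor Gata4, which maintains sinusoidal identity, differed less than their standard errors. Fcgr2b (ENSMUSG00000026656.15, chr1:170958617-170976547, minus strand) ranged from 28.8 to 37.9 CPM in VDD-F1 with a median of 31.6 and from 26.7 to 37.5 CPM in VDS-F1 with a median of 34.8. Its log2 fold change was -0.06 (SE 0.10, adjusted p = 0.820 in edgeR). Fragments that fit several places were counted for no gene, so the levels of Fcgr2b, which resembles other Fc receptor genes, are less certain. Gata4 (ENSMUSG00000021944.15, chr14:63198922-63271692, minus strand) ranged from 18.9 to 34.2 CPM in VDD-F1 and from 19.6 to 43.2 CPM in VDS-F1, with medians of 27.1 and 28.2. Its log2 fold change of -0.10 (SE 0.19) turned to 0.06 without VDS6, the mouse at 43.2.

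Of the vascular members, Cd34, a sialomucin of capillary endothelium that stromal and blood progenitor cells also carry, varied most between mice (ENSMUSG00000016494.9, chr1:194938819-194961279, plus strand). It was counted at 0.694, 11.6, 1.66, 5.84, 5.89 and 5.41 CPM in VDD1 to VDD6 and at 2.62, 0.590, 0.687, 1.51, 0.764 and 2.43 CPM in VDS1 to VDS6. In VDD-F1, 4 mice lay above every VDS-F1 mouse, while VDD1 and VDD3 lay among them. The counts behind these values were 11, 223, 22, 85, 112 and 116 in VDD-F1 and 53, 10, 10, 29, 11 and 34 in VDS-F1, and the 95% Poisson intervals, which cover counting error only, were 4.66 to 7.22 CPM for VDD4 and 1.96 to 3.42 CPM for VDS1. The log2 fold change was 1.85 (SE 0.57, adjusted p = 0.136 in edgeR), from means of 5.19 ± 3.88 and 1.43 ± 0.908 CPM (SD, n = 6 each), and 119 of 12453 genes had a larger one in absolute terms. DESeq2's Wald test gave an adjusted p of 0.0227, a threshold that 4.05% of genes passed there, voom gave 0.0657, and leaving out VDD1 gave 2.08 with an adjusted p of 0.0331 in edgeR. Leaving out VDD2 gave 1.44 (adjusted p = 0.286), and no other mouse left out brought Cd34 past the threshold, with adjusted p from 0.0849 to 0.286.

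Pecam1, an adhesion protein of endothelial junctions (ENSMUSG00000020717.19, chr11:106654217-106750628, minus strand), had 17.7, 24.7, 19.4, 23.1, 25.5 and 25.9 CPM in VDD1 to VDD6. The VDS-F1 mice had 16.5, 17.3, 22.5, 21.0, 19.6 and 18.4 CPM. Again 4 VDD-F1 mice lay above all VDS-F1 mice, and these were the same 4 mice as for Cd34 (VDD2, VDD4, VDD5 and VDD6). The log2 fold change was 0.24 (SE 0.11, adjusted p = 0.316 in edgeR), from 22.7 ± 3.40 and 19.2 ± 2.26 CPM (SD, n = 6 each).

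Plvap (ENSMUSG00000034845.6, chr8:71497765-71511752, minus strand, overlapping Gtpbp3 on the other strand) split the VDD-F1 mice into those with and without a recorded liver weight. It was counted at 54.7, 53.2, 55.6, 40.4, 39.7 and 34.5 CPM in VDD1 to VDD6 and at 44.3, 52.8, 51.8, 51.7, 49.3 and 55.7 CPM in VDS1 to VDS6. The 3 lowest values of all 12 were VDD4 to VDD6. The log2 fold change over 12 mice was -0.14 (SE 0.12, adjusted p = 0.617 in edgeR), from 46.3 ± 9.19 and 50.9 ± 3.87 CPM (SD, n = 6 each).

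Vwf, the clotting protein stored by large vessel endothelium (ENSMUSG00000001930.17, chr6:125546774-125686679, plus strand), ranged from 8.02 to 13.2 CPM in VDD-F1 and from 8.06 to 13.2 CPM in VDS-F1. The medians were 9.23 and 9.81 CPM, and the log2 fold change was -0.06 (SE 0.16, adjusted p = 0.896 in edgeR). In bulk liver, fewer cells of a type and less RNA per cell cannot be told apart, for any of these genes.

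Within the 7 mice with a recorded liver weight (3 VDD-F1 and 4 VDS-F1), Stab2 and Plvap fell and Cd34 rose in VDD-F1. The groups did not overlap for 6 of the 10 members, against 23.4% of all genes in these mice. Stab2 was 59.9 to 67.7 CPM in VDD-F1 and 81.8 to 99.9 CPM in VDS-F1, with a log2 fold change of -0.48 (SE 0.09, adjusted p = 0.00684 in edgeR on these mice alone). Plvap was 34.5 to 40.4 CPM against 49.3 to 55.7 CPM, with -0.45 (SE 0.10, adjusted p = 0.0123). Cd34 was 5.41 to 5.89 CPM against 0.687 to 2.43 CPM, with 2.08 (SE 0.35, adjusted p = 0.00325). These 3 of 10 members stood beside 11% of all genes that passed in the same mice, 5.87% higher and 5.11% lower. Clec4g (24.4 to 27.0 against 30.1 to 33.9 CPM, adjusted p = 0.0766), Oit3 (27.2 to 29.9 against 31.2 to 36.8 CPM, adjusted p = 0.154) and Pecam1 (23.1 to 25.9 against 18.4 to 22.5 CPM, adjusted p = 0.128) did not overlap either but missed the threshold.

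In the 5 mice without a recorded weight (3 VDD-F1 and 2 VDS-F1), no gene passed in edgeR and 473 of 12541 genes, 3.77%, had an unadjusted p under 0.05, none of them a member. Stab2 was 73.9 to 80.6 CPM in VDD-F1 and 67.2 to 75.5 CPM in VDS-F1, a log2 fold change of 0.11 (SE 0.15). Plvap was 53.2 to 55.6 CPM against 44.3 to 52.8 CPM, a log2 fold change of 0.17 (SE 0.15). Both values had the opposite sign to those in the weighed mice, and the groups did not overlap for Plvap and Pecam1 (18.5% of all genes). The difference between the sets was tested as an interaction in 1 fit over 12 mice, where 0.0883% of genes passed. For Stab2 it was -0.59 (SE 0.15, unadjusted p = 0.00203, adjusted p = 0.226 in edgeR) and for Plvap -0.62 (SE 0.16, unadjusted p = 0.00166, adjusted p = 0.208). Neither passed, and 9.01% of all genes had an unadjusted p under 0.05. In that fit the diet difference within the weighed mice passed for Stab2 (adjusted p = 0.0287) and Plvap (adjusted p = 0.0389) and missed the threshold for Cd34 (adjusted p = 0.173), beside 2.02% of genes. For Cd34 the interaction was 0.54 (SE 1.19, adjusted p = 0.943 in edgeR). With VDD2 and VDS6 left out it was 2.99 (adjusted p = 0.0496 in edgeR), in a fit where 486 genes passed instead of 11. VDD2 had the highest Cd34 of the unweighed VDD-F1 mice (11.6 CPM), and those left in the fit, VDD1 and VDD3, had 0.694 and 1.66 CPM. Within VDS-F1 alone, Stab2 was higher in the weighed than in the other mice by 0.34 (SE 0.11, adjusted p = 0.265).

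**Figure D2:**
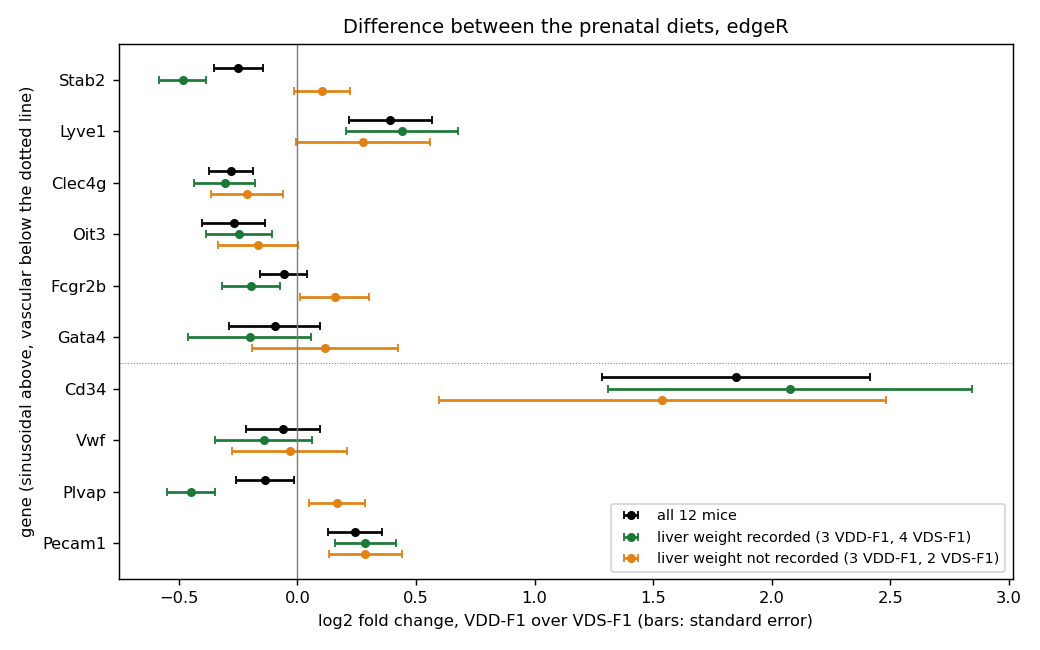
Log2 fold change of VDD-F1 over VDS-F1 (x axis) with its standard error for each member (y axis), in all 12 mice (black) and, from a single fit with set and diet, in mice with (green) and without (orange) a recorded liver weight. Stab2 and Plvap lie left of 0 in the first set (-0.48 and -0.45) and right of it in the other (0.10 and 0.17), while Cd34 lies right of 0 in both.

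The balance of the classes was described as the summed CPM of the 4 vascular members over that of the 6 sinusoidal members in each mouse. For VDD-F1 this ratio averaged 0.438 ± 0.031, for VDS-F1 0.381 ± 0.025 (SD, n = 6 each), a difference of 0.20 in mean log2 ratio, and the groups overlapped. The weighed mice differed by 0.19 and the other mice by 0.16 on the log2 scale, with no overlap in either set. The class sums behind it did not run alike in the sets. In the weighed mice the sinusoidal sum was 186 ± 8.59 CPM in VDD-F1 and 229 ± 18.9 CPM in VDS-F1 (SD, n = 3 and 4) with no overlap, and the vascular sum 77.6 ± 3.45 and 83.7 ± 4.82 CPM. In the other mice the sinusoidal sum was 197 ± 14.4 and 191 ± 15.03 CPM (SD, n = 3 and 2), and the vascular sum 90.4 ± 11.1 and 78.0 ± 3.66 CPM with no overlap. Over all 12 mice the sinusoidal sum was 192 ± 12.05 CPM in VDD-F1 and 216 ± 25.3 CPM in VDS-F1, and the vascular sum 84.0 ± 10.2 and 81.8 ± 5.03 CPM. Cd34 made up from 0.732% (VDS2) to 11.3% (VDD2) of the vascular sum. Without it, the difference was 0.14, and the groups overlapped in the weighed mice but not in the other mice, which differed by 0.12. The value depends on the vascular members and on the measure. It was 0.03 with Vwf and Plvap alone, 0.43 without Plvap, 0.0886 from counts per kilobase and 0.42 from mean log2 CPM. No p is given for the ratio, since the members were chosen with results of these mice known.

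**Figure D3:**
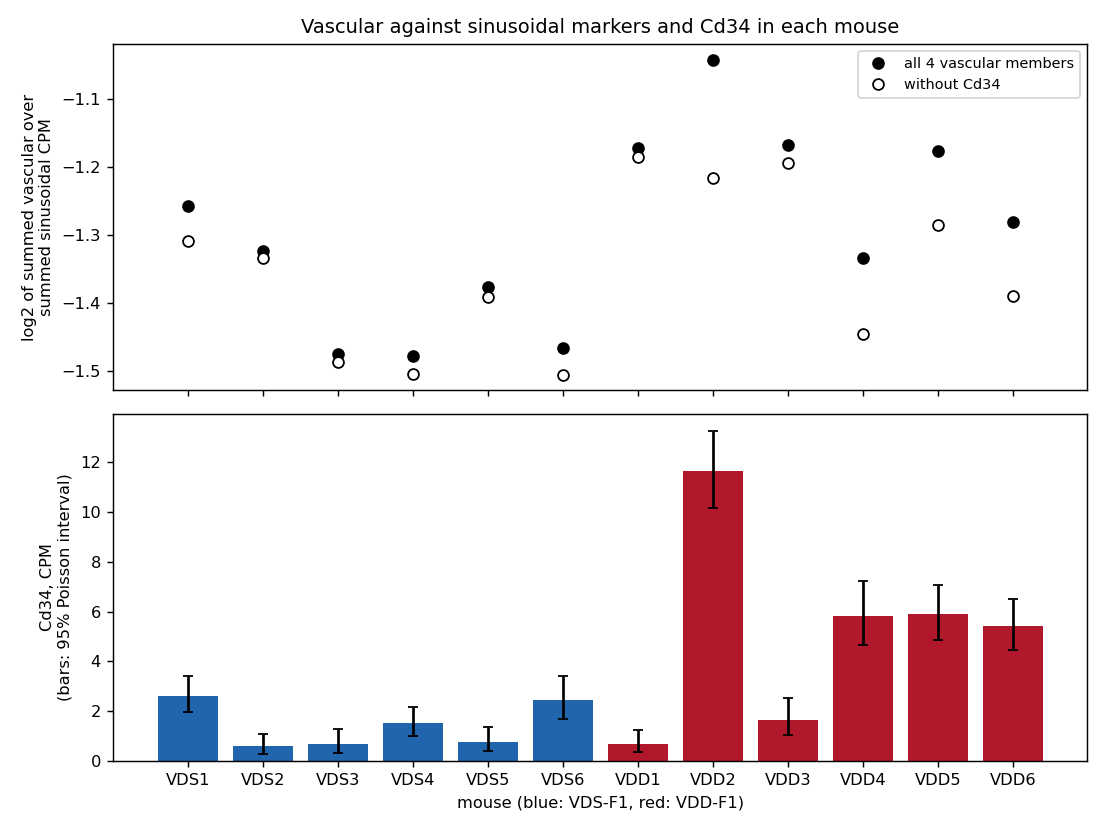
Upper panel, log2 of summed vascular over summed sinusoidal CPM in each mouse, with (filled) and without (open) Cd34, on an axis that does not start at 0. Lower panel, Cd34 CPM with its 95% Poisson interval, VDS-F1 in blue and VDD-F1 in red. Cd34 moves the ratio most in VDD2, where it is 11.6 CPM, and VDD1 with 0.694 CPM lies among the VDS-F1 mice for Cd34.

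Of other genes of sinusoidal endothelium, all 14 listed were tested. In edgeR 3 had an unadjusted p under 0.05, all lower in VDD-F1 (6.29% of all genes), with a median log2 fold change of -0.13 and none past the adjusted threshold. Voom put 1 of the 14 past it, beside 4.74% of all genes, and DESeq2 put 0. Ehd3, a membrane trafficking protein, averaged 56.1 ± 9.24 CPM in VDD-F1 and 79.3 ± 21.2 CPM in VDS-F1 (SD, n = 6 each), which is -0.50 on the log2 scale (SE 0.19, adjusted p = 0.217 in edgeR). Dnase1l3, a secreted DNase, had 59.0 ± 4.62 and 80.5 ± 19.9 CPM and -0.45 (SE 0.15, adjusted p = 0.173). Gpr182, a chemokine scavenging receptor, had 32.5 ± 2.43 and 40.4 ± 8.34 CPM and -0.31 (SE 0.13, adjusted p = 0.249). VDS1 was the VDS-F1 mouse with the lowest value for all 3, at 39.3 CPM for Ehd3, 45.3 CPM for Dnase1l3 and 27.5 CPM for Gpr182. In the weighed mice 5 of the 14 fell (5.11% of all genes fell there), namely these 3 and, named after their values were seen, Mrc1 and Wnt2, and the median was -0.28, while in the other mice none had an unadjusted p under 0.05 and the median was 0.07. In the single fit over 12 mice none of these 5 passed within the weighed mice, with adjusted p from 0.0726 (Dnase1l3) to 0.181 (Wnt2) in edgeR. Without VDD2 and VDS6, 1 of the 14 was lower at an unadjusted p under 0.05, beside 4.94% of all genes.

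Of 19 other capillary and large vessel genes, 11 passed the filter, and 3 of these had an unadjusted p under 0.05, all higher in VDD-F1 (9.55% of all genes). Their median log2 fold change was 0.33, or 0.25 with VDD2 and VDS6 left out. Esm1 (endocan), a proteoglycan of endothelial tip cells, was 0.757, 4.70, 2.41, 4.12, 5.73 and 4.94 CPM in VDD1 to VDD6. It was 1.18, 0.590, 0.206, 0.884, 0.903 and 0.859 CPM in VDS1 to VDS6. Only VDD1 lay among the VDS-F1 mice, and the log2 fold change was 2.27 (SE 0.44, adjusted p = 0.0640 in edgeR). DESeq2 gave an adjusted p of 0.000142 for Esm1. Mcam, a melanoma-linked adhesion protein of vessel walls, had 6.74 ± 1.21 CPM in VDD-F1 and 4.52 ± 1.02 CPM in VDS-F1 (SD, n = 6 each), or 0.58 on the log2 scale (SE 0.18, adjusted p = 0.134 in edgeR). Gja5, a connexin of arterial endothelium, had 1.29 ± 0.569 and 0.769 ± 0.144 CPM and 0.76 (SE 0.34, adjusted p = 0.293). In the weighed mice 3 of the 11 rose (Esm1, Gja5 and Mcam), beside 5.87% of all genes that rose there, with a median of 0.51. In the single fit over 12 mice Esm1 passed within the weighed mice (adjusted p = 0.0266 in edgeR), while Gja5 (0.156) and Mcam (0.126) did not. In the other mice 1 of 12 tested was higher at an unadjusted p under 0.05, beside 3.77% of all genes in either direction, and the median was 0.30.

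The 21 pan-endothelial genes were all tested, and their median log2 fold change was -0.03 in 12 mice, 0.10 in the weighed mice and 0.02 in the other mice. In those other mice 2 of the 21 were higher and 1 lower at an unadjusted p under 0.05 in edgeR, beside 3.77% of all genes. Over all 12 mice Ecscr, an endothelial cell surface protein, alone of the 21 had an unadjusted p under 0.05 in edgeR (15.8% of all genes). It had 1.58 ± 0.339 CPM in VDD-F1 and 0.922 ± 0.295 CPM in VDS-F1 (SD, n = 6 each), or 0.77 on the log2 scale (SE 0.27, adjusted p = 0.193 in edgeR). Ptprb, a phosphatase of endothelial junctions, came next at -0.19 (SE 0.10, adjusted p = 0.400), and then Esam, a junction protein, at 0.27 (SE 0.18, adjusted p = 0.499). Summed over the list, the levels were 420 to 590 CPM in VDD-F1 and 462 to 626 CPM in VDS-F1. Of 4 lymphatic genes, Ccl21a was at 0 in every library and only Prox1, which hepatocytes also express, was tested, with -0.26 (SE 0.19, adjusted p = 0.523).

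**Figure D4:**
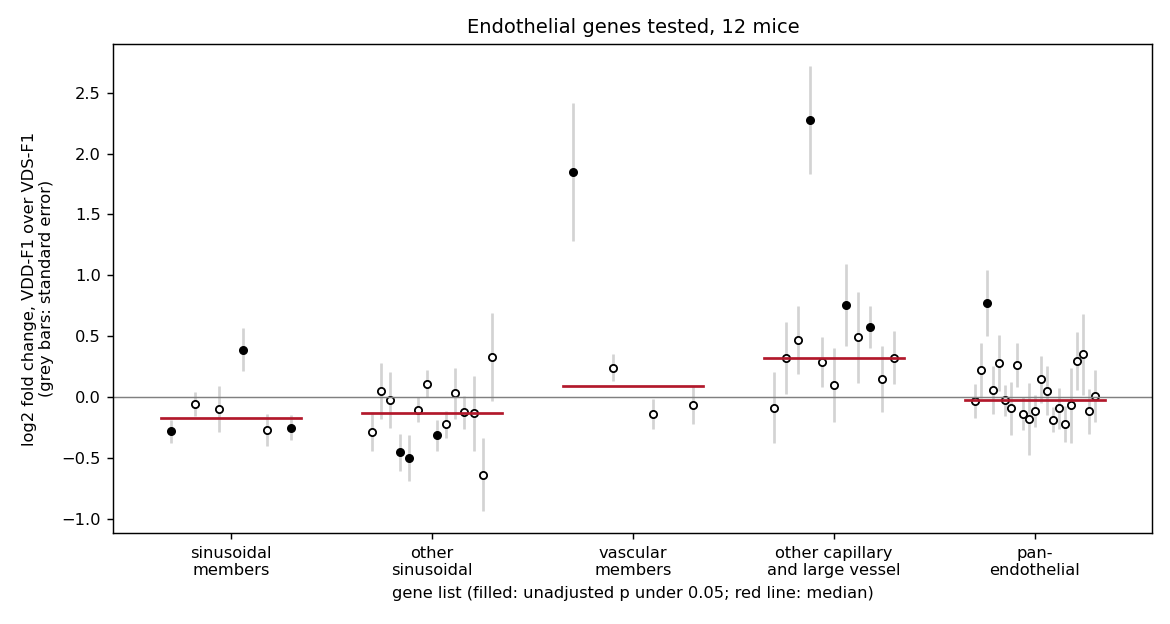
Log2 fold change of VDD-F1 over VDS-F1 with its standard error (y axis) for each tested gene of 5 endothelial lists (x axis). Filled points have an unadjusted p under 0.05 and red lines are list medians, at -0.17 and -0.13 for the sinusoidal lists, 0.09 and 0.33 for the vascular lists and -0.03 for the pan-endothelial genes.

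Markers of other cells were read in the same libraries, where 9.55% of all genes were higher and 6.29% lower in VDD-F1 at an unadjusted p under 0.05. Of 8 stellate cell and fibroblast genes, 5 had an unadjusted p under 0.05 in edgeR, all higher in VDD-F1. Col3a1 was at 1.78 (SE 0.40, adjusted p = 0.0855 in edgeR) and Col1a1 at 2.27 (SE 0.53, adjusted p = 0.0883). DESeq2 gave them adjusted p of 0.00755 and 0.00825, and 3 of the 8 passed there, beside 4.05% of all genes. The 8 genes summed to 311 to 1023 CPM in VDD-F1 and 295 to 479 CPM in VDS-F1. The 5 portal fibroblast genes summed to 5.81 to 56.0 CPM in VDD-F1 and 5.70 to 11.4 CPM in VDS-F1, with VDD1 lowest and VDD2 highest in VDD-F1, as for Cd34. The same mice were lowest and highest for the stellate cell and fibroblast, cholangiocyte, smooth muscle, and other capillary and large vessel sums. Eln and Dpt of the portal fibroblast list had log2 fold changes of 2.18 (SE 0.53, adjusted p = 0.0917 in edgeR) and 2.04 (SE 0.58, adjusted p = 0.118). DESeq2 gave them adjusted p of 0.0113 and 0.0420. In edgeR 2 of the 4 tested genes of that list had an unadjusted p under 0.05. Of 5 cholangiocyte genes, 3 were higher at that level, with summed levels of 23.9 to 115 CPM and 27.6 to 51.0 CPM. Of 8 Kupffer cell genes, 2 were lower (Timd4 at -0.81, adjusted p = 0.235, and Clec4f at -0.50, adjusted p = 0.249), with sums of 160 to 404 CPM and 209 to 381 CPM. The fitted value was above 0 for 3 of the 8 (Marco, Adgre1 and C1qa, named after their values were seen) and below 0 for the other 5. In the mesothelium list 1 of 4 tested genes (Gpm6a at 1.02, adjusted p = 0.265) was higher, with sums of 2.21 to 19.2 and 2.34 to 11.3 CPM. With VDD2 and VDS6 left out, 3 of the 8 stellate cell and fibroblast genes, 2 of the 4 portal fibroblast genes, 0 of the 5 cholangiocyte genes and 0 mesothelium genes were higher at that level in edgeR (6.99% of all genes in that fit), and 2 Kupffer cell genes were lower (4.94%). None of the tested hepatocyte, smooth muscle, B cell or platelet genes had an unadjusted p under 0.05 in edgeR. DESeq2 had such genes in the hepatocyte list, and voom in the hepatocyte, smooth muscle and platelet lists. Voom put 1 hepatocyte and 1 smooth muscle gene past an adjusted p of 0.05, both higher in VDD-F1, beside 4.74% of all genes. The smooth muscle sums were 6.94 to 16.9 CPM in VDD-F1 and 5.51 to 18.1 CPM in VDS-F1, the B cell sums 0.377 to 4.96 and 0.859 to 2.54 CPM, and the platelet sums 1.78 to 5.12 and 2.71 to 6.27 CPM.

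In the weighed mice, where Stab2, Plvap and Cd34 passed, the hepatocyte sum was 108028 to 111372 CPM in VDD-F1 and 86610 to 94001 CPM in VDS-F1. Alb makes up most of that sum, and 2 of the 6 hepatocyte genes had a fitted value below 0 there. The portal fibroblast sum there was 29.4 to 31.4 CPM in VDD-F1 and 5.70 to 9.23 CPM in VDS-F1, and the Kupffer cell sum 160 to 215 CPM and 226.5 to 298 CPM. The stellate cell and fibroblast sum was 531 to 642 CPM in VDD-F1 against 295 to 374 CPM in VDS-F1, and the cholangiocyte sum 57.9 to 71.7 against 27.6 to 44.0 CPM. Smooth muscle summed to 12.5 to 13.1 against 5.51 to 8.19 CPM and B cells to 2.52 to 2.88 against 0.859 to 2.24 CPM. None of these 7 sums overlapped between the groups, while the mesothelium and platelet sums did. In the same mice 23.4% of all single genes did not overlap. The part of these cell types in the endothelial differences was not tested.

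The genes whose log2 CPM ran most like a member's over the 12 mice were ranked by Pearson's r among 12452 genes, as a description of mice that share group, set and library. Stab2, the sinusoidal member with the highest mean CPM, was most like Ildr2 (0.909), Kcnn1 (0.890) and Dpf2 (0.889). Its r was 0.752 with Plvap, 0.728 with Fcgr2b, 0.620 with Clec4g, -0.502 with Lyve1 and -0.485 with Cd34. Plvap, the vascular member with the highest mean CPM, was most like Gbp2b (0.961), Cblc (0.910) and Srbd1 (0.906). Cd34, added after its values were seen, was most like Emp1 (0.969), Eln (0.964) and Mmp2 (0.963), of which Eln encodes elastin and Mmp2 a matrix protease. The r of Stab2 with the vascular member Plvap (0.752) was only slightly above that with its closest sinusoidal member Fcgr2b (0.728). Lyve1 had a higher r with Cd34 (0.718) than with Stab2, though it ranked 663 of 12452 genes for Cd34.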

How the data were processed

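After adapter trimming, the authors used STAR on mm10 (GRCm38) with GENCODE M15 genes and deposited raw fragment counts for each of 12 liver libraries, made from total RNA after ribosomal depletion. No library was pooled and no pair of libraries held identical counts (0 pairs). The reverse-strand column, which held 92.7% to 95.8% of stranded counts, was used. Gene symbols and lengths came from GENCODE M21, which matched 52489 of 52636 genes. Fragments mapping to several places count for no gene.

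All genes whose mean count reached 12 were fitted with edgeR 4.0.16 in R 4.3.3 (TMM, quasi-likelihood, legacy form), and p-values were adjusted by Benjamini-Hochberg over all 12453 genes, with 0.05 as the threshold. Standard errors are the log2 fold change over the root of F. DESeq2 1.42.0, voom in limma 3.58.1, other filters, the replicate block and leaving out mice were alternatives. Correlations used log2 CPM with a prior count of 2. The scripts were tested on simulated data. The liver weight split was read from the study's supplement, whose mouse names differ slightly from the labels and were matched by number within diet.

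All members were named. Of each other endothelial list, up to 3 genes of the smallest unadjusted p were named, and up to 2 of each other cell type. Mrc1, Wnt2, Marco, Adgre1 and C1qa were added after their values were seen. The members and lists were chosen with earlier results of these data known.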

Additional observations from a re-analysis of the deposited data

Results flagged for a closer look

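In the VDD-F1 group, the Oit3 level of VDD1 was 17.99 CPM, far below the next mouse at 25.5 CPM and the highest at 29.9 CPM. The gap made up 0.631 of the group's range, beyond Dixon's 95% limit for 6 mice. It was the only such value in 22 groups of values looked at, where chance gives about 1 in 20.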

How the results depend on the processing

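The log2 fold changes of Lyve1, Clec4g, Oit3, Cd34 and Pecam1 kept their sign under all 25 alternatives, with Cd34 at 1.44 to 2.12. Against 5 genes called in 12 mice, DESeq2 called 504, voom 590, edgeR's newer form 20, no filter 85, the set as covariate 28, the weighed mice alone 1358 and the other mice alone 0. Leaving out 1 mouse gave 0 to 420 genes, the 420 without VDD1, 142 without VDD3, 12 without VDS2, 8 without VDD2, 1 without VDS6, and 0 without VDD4, VDD5, VDD6, VDS3, VDS4 or VDS5. Members called (0 in 12 mice) were 1 by DESeq2 (Cd34), 1 by voom (Stab2, -0.36, adjusted p = 0.0448), 3 in the weighed mice and 0 to 1 with 1 mouse left out. The cause of these shifts was not tested.

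The shared replicate numbers mark different mice. Deviations of same-numbered mice correlated over 0.1 in 1 of 6 pairs, and no VDD-F1 mouse was closest to its own number. These values show no pairing by number but cannot exclude one, since no label says what the numbers mean. The replicate block called 19 genes and 0 members.

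Without VDD2 and VDS6 the interaction called 486 genes instead of 11 and 1 member instead of 0 (Cd34, 2.99, adjusted p = 0.0496). The ratio difference of 0.20 was 0.42 from mean log2 CPM, 0.0886 per kilobase, 0.0267 with Vwf and Plvap alone, 0.43 without Plvap, and 0.17 to 0.23 with 1 mouse left out.

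Signs turned in the mice without a weight for Stab2 (0.11), Fcgr2b (0.16), Gata4 (0.12) and Plvap (0.17). Gata4 was 0.0387 without VDD2 and VDS6. With 1 mouse left out Gata4 ran from -0.1816 to 0.0641 and Vwf from -0.163 to 0.0229, the upper ends without VDS6. The interaction turned for Pecam1 (-0.0178 with size factors, -0.0237 with unstranded counts), and for Oit3 (0.0355) and Vwf (0.24) without VDD2 and VDS6. Cd34 rests on 10 to 223 counts per library, so its level is the least precise of the members.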
